A study of Mus musculus with 4 samples.

Results

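The genes described are those of the NF-kappa-B system. Of these, 5 code for the subunits of the transcription factor (*Nfkb1*, *Nfkb2*, *Rela*, *Relb* and *Rel*). The other 5 are grouped here as its inhibitors (*Nfkbia*, *Nfkbib*, *Nfkbie*, *Nfkbiz* and *Tnfaip3*). Every probe that carried 1 of these names in the array files was taken, which gave 15 of the 39429 probes on the array and 10 of its 30175 gene entries. Of the 15 probes, 8 belonged to subunits and 7 to inhibitors. *Nfkbib* and *Relb* had 3 probes each, *Nfkb1* had 2, and the other 7 genes had 1.

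RNA came from NIH-3T3:Per2-Luc, a line of mouse embryonic fibroblasts that carries luciferase driven by the promoter of the clock gene *Per2*. Cells were given a pulse of critical oxidative stress (cOS-pulse, 5 mM H2O2 for 10 min) and harvested 4 h, 20 h or 32 h later. Control cells received 0 mM H2O2 and a change to fresh medium, and their label gives 4 h. Each condition was read on 1 one-color Agilent array, with no replicates, so no test was run. The 20 h and 32 h arrays were compared with the same control array as the 4 h array, so the 3 comparisons are not independent. The hours since the medium change and the pulse cannot be told apart at 20 h and 32 h.

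NF-kappa-B is a dimer of Rel family proteins. In resting cells, I-kappa-B proteins hold it in the cytoplasm, and kinase signals that lead to their degradation free it to enter the nucleus and activate genes of inflammation and cell survival. Among the genes it activates are some of its own inhibitors and subunits, which makes the system a textbook case of negative feedback. The arrays measure RNA only, and neither protein amount nor nuclear entry was read.

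Each array's signals were divided by their own 75th percentile and are given as relative signal, so a value of 1 is the 75th percentile. Values were compared between arrays for 1 probe and not between probes, since probes differ in how well they bind. The error given with a log2 ratio combines what the scanner software gives for each spot and covers the spot only, not the spread between cultures. Each member probe had 1 spot per array. For probes printed in 10 spots with a signal of at least 150, the log2 ratio at 4 h had a median SD of 0.049 between spots, smaller than the software error of about 0.20.

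Between 52.7% and 59.1% of all probes were well above background on an array, with the highest share at 4 h. Of 12 fibroblast markers, 11 were well above background on every array, and *Postn* was on none. Of 10 leukocyte markers, 7 were well above background on every array, while *Ptprc*, *Emr1* and *Lyz2* were on none. The summed relative signal of the leukocyte list was 25.7 in the control, 38.2 at 4 h, 16.8 at 20 h and 18.7 at 32 h. That sum was highest on the array where most member probes were also highest, and its part in the member values was not tested. Most of the sum came from 1 probe, that of *Itgam*, with 20.4 in the control and 30.3 at 4 h. Of 4 endothelial markers, 2 to 3 were well above background on an array and *Tek* on none, and of 4 epithelial markers only *Krt8* was.

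Of the 15 member probes, 14 were well above background on all 4 arrays. The exception was *Rel*, which codes for c-Rel, the subunit best known from lymphocytes. Its relative signal was 0.00719 in the control, 0.00814 at 4 h, 0.00578 at 20 h and 0.00753 at 32 h. These values lay below the lowest signal well above background on each array (0.0290 to 0.0377), so no ratio was taken for *Rel*. The array annotation places this 60-base probe on only 15 bases of the genome (chromosome 11, 23641729 to 23641743, minus strand). How well the probe reads *Rel* RNA was not tested, so its low signal does not show that the gene was silent.

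At 4 h after cOS-pulse, the NF-kappa-B genes did not move by the same amount. *Nfkb1*, 2 of the 3 *Nfkbib* probes, *Nfkbiz* and *Tnfaip3* exceeded the control at least 2-fold. *Rela*, *Relb*, *Nfkbia* and the remaining *Nfkbib* probe were higher by less than 2-fold (for 2 *Relb* probes, not under every scaling), *Nfkb2* was near the control, and *Nfkbie* was lower. In all, 6 of the 15 member probes were at least 2-fold higher, where 6.77% of all probes on the array were. Of the 15, 0 were at least 2-fold lower, where 4.94% of all probes were. The 6 include both *Nfkb1* probes and 2 *Nfkbib* probes, and probes of 1 gene are not separate members. Among probes well above background on both arrays, 8.63% were at least 2-fold higher and 7.92% lower, against 6 and 0 of the 14 such member probes. The median log2 ratio was 0.68 over the 14 member probes and 0.17 over all 20392 probes measured on both arrays. It was 0.40 for the 7 measured subunit probes and 1.03 for the 7 inhibitor probes, where a gene with more probes weighs more. The choice of scaling moved the count. Without scaling, 3 member probes reached 2-fold, where 4.06% of all probes did. The count was 1 with scaling by the median, where 3.55% did, and 0 with the spike-in controls, where 3.33% did. With the 75th percentile of detected probes, where 5.33% of all probes reached 2-fold, *Nfkbiz* and *Tnfaip3* did not (log2 ratios 0.95 and 0.90). The *Nfkb1* probes and the same 2 *Nfkbib* probes still did.

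**Figure D1:**
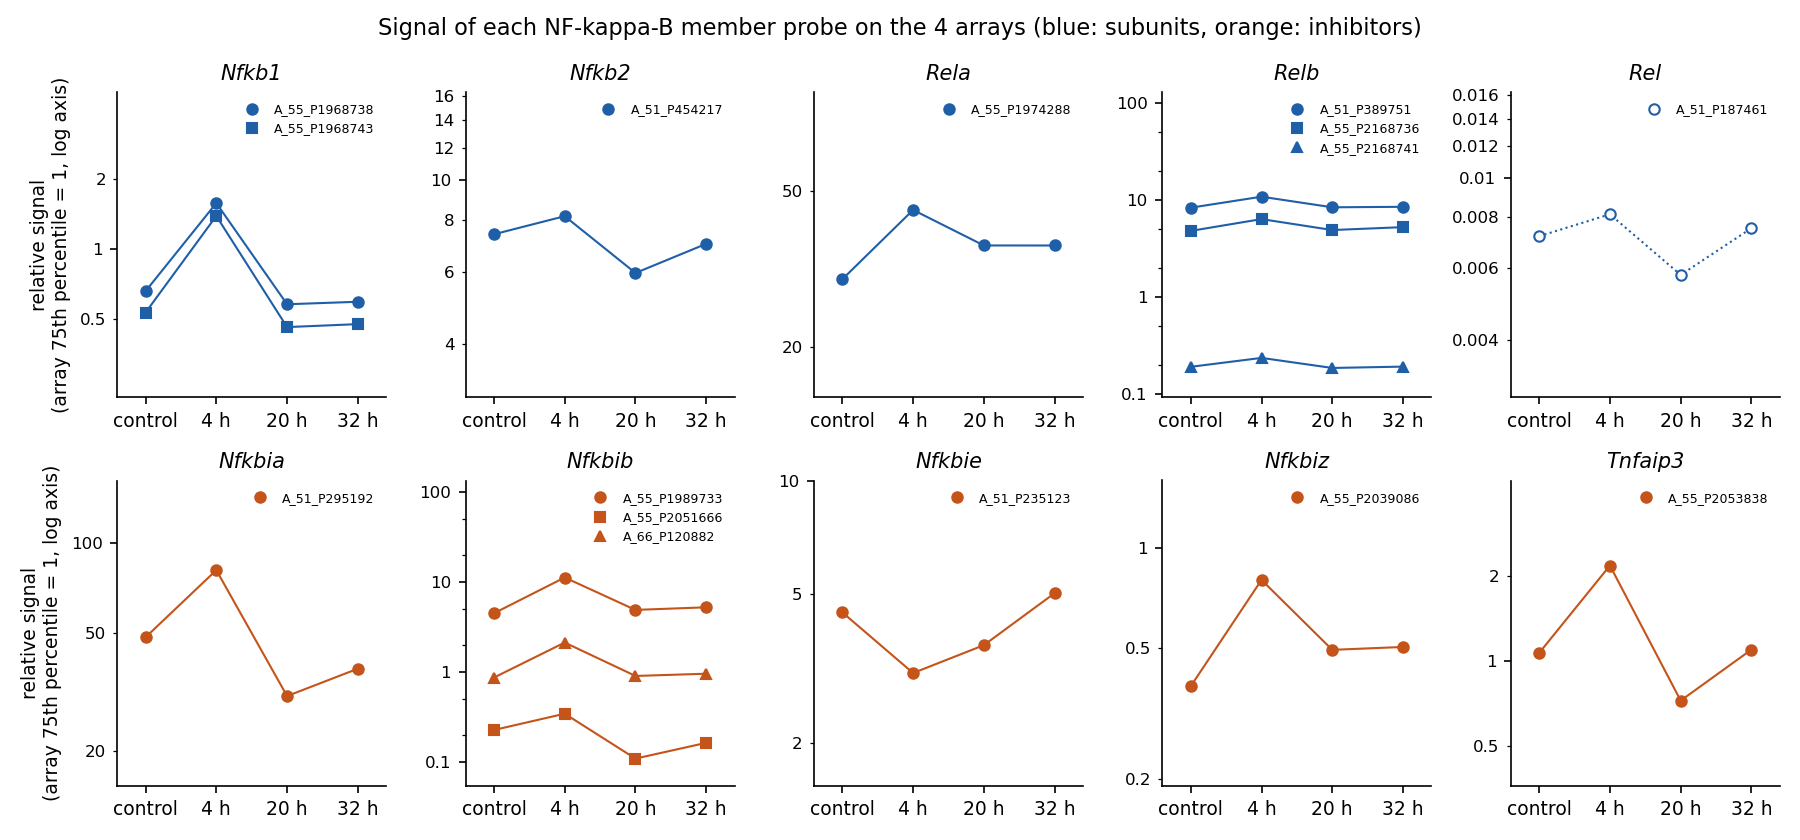
Relative signal (log axis, 75th percentile of the array = 1) of each member probe on the control array and on those of 4 h, 20 h and 32 h after cOS-pulse, 1 each, with 1 panel per gene and 1 symbol per probe. Of the 14 probes well above background (filled), all but the *Nfkbie* probe were higher at 4 h than in the control on this scaling, although the sign for *Nfkb2* and for 2 *Relb* probes changed with other scalings, and the *Rel* probe (open) was not well above background.

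*Nfkb1* codes for p105, the precursor of the p50 subunit, which binds DNA but lacks an activation domain. The probe A_55_P1968743 (chromosome 3, 135254550 to 135254609, minus strand, mm9, the build of the array annotation) had a relative signal of 0.535 in the control, 1.39 at 4 h, 0.464 at 20 h and 0.477 at 32 h. Its log2 ratio at 4 h was 1.38 ± 0.21, the highest of the member probes, at percentile 96.3 of all measured probes. The second probe, A_55_P1968738 (chromosome 3, 135247621 to 135247680), lies farther downstream in the gene and read 0.661, 1.58, 0.581 and 0.595 on the same arrays. Its log2 ratio at 4 h was 1.26 ± 0.21, so the probes differed by less than the spot error, and both were highest at 4 h. Both ratios stayed above 0 under every scaling tried, with a lowest value of 0.85. The first probe is shown because it carries the highest ratio of the group, and it is printed as designed, 5′ to 3′.
Nfkb1 probe A_55_P1968743: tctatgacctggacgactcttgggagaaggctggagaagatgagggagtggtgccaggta

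*Rela* codes for p65, the subunit with the main activation domain. Its probe (chromosome 19, 5648070 to 5648129) read 29.9 in the control, 44.9 at 4 h, 36.4 at 20 h and 36.4 at 32 h. The log2 ratio was 0.59 ± 0.20 at 4 h and 0.29 ± 0.20 at both later times. *Rela* was thus higher on each pulsed array than in the control, by less than 2-fold, and it kept that sign under all 5 other scalings. Its ratio at 4 h lay at percentile 78.5, and the values at 20 h and 32 h lay at percentiles 85.5 and 84.6.

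*Relb* codes for RelB, a subunit of the non-canonical pathway. The probes A_51_P389751 and A_55_P2168736 overlap at their ends (chromosome 7, 20191722 to 20191781 and 20191773 to 20191832, minus strand) and are not independent readings. The first read 8.30 in the control, 10.8 at 4 h, 8.38 at 20 h and 8.48 at 32 h. The second read 4.78, 6.33, 4.88 and 5.23. The probe A_55_P2168741 lies upstream (chromosome 7, 20203058 to 20203117), is assigned to another transcript of the gene, and read 0.190, 0.235, 0.185 and 0.191. All 3 probes were highest at 4 h on this scaling, with log2 ratios of 0.38, 0.40 and 0.31, while the 6 values at 20 h and 32 h were between -0.04 and 0.13 and within the spot error. The sign at 4 h held for A_55_P2168736, but turned for A_51_P389751 with spike-in scaling (-0.03) and for A_55_P2168741 with median and spike-in scaling (-0.06 and -0.10).

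*Nfkb2*, which codes for the precursor of p52, the partner of RelB, was the subunit gene with the smallest ratio at 4 h. Its probe (chromosome 19, 46386146 to 46386285, plus strand) read 7.40 in the control, 8.19 at 4 h, 5.96 at 20 h and 7.01 at 32 h. The log2 ratio was 0.15 ± 0.20 at 4 h, within the spot error, at percentile 48.2, and it was below 0 in 4 of the 5 other scalings (down to -0.26). It was -0.31 ± 0.20 at 20 h, though 0.02 without scaling, and -0.08 ± 0.20 at 32 h, though 0.08 with spike-in scaling and 0.10 without scaling.

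*Nfkbia* codes for I-kappa-B alpha, the inhibitor whose resynthesis ends the canonical response. Its probe (chromosome 12, 56590945 to 56591440, minus strand) spans more genome than its 60 bases. It read 48.2 in the control, 81.1 at 4 h, 30.6 at 20 h and 37.8 at 32 h. The log2 ratio was 0.75 ± 0.20 at 4 h, -0.66 ± 0.20 at 20 h and -0.35 ± 0.20 at 32 h. *Nfkbia* was therefore above the control at 4 h and below it on both later arrays, at percentiles 84.8, 4.52 and 13.1 of all measured probes, and these signs held under all 5 other scalings. The probe letters are given because no other probe of the array carries this gene name.
Nfkbia probe A_51_P295192: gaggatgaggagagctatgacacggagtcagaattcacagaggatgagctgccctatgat

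*Nfkbib* codes for I-kappa-B beta, which binds the same dimers as I-kappa-B alpha. Its 3 probes did not give 1 pattern. A_55_P1989733 (chromosome 7, 29544160 to 29544219, minus strand) read 4.47 in the control, 11.2 at 4 h, 4.87 at 20 h and 5.20 at 32 h. A_66_P120882, which lies upstream and spans more genome than its 60 bases (29545252 to 29546647), read 0.860, 2.11, 0.896 and 0.949. These 2 probes had log2 ratios of 1.32 ± 0.20 and 1.29 ± 0.20 at 4 h and stayed within 0.22 of the control later. The remaining probe, A_55_P2051666, lies farthest downstream (29543270 to 29543329) and read 0.224, 0.341, 0.108 and 0.162. Its log2 ratio was 0.60 ± 0.21 at 4 h, -1.06 ± 0.23 at 20 h and -0.47 ± 0.23 at 32 h. It was the 1 member probe at least 2-fold lower at 20 h, although it did not reach 2-fold with median, quantile, spike-in or no scaling or with normexp background correction. The signs of all 3 probes at 4 h held under all 5 other scalings. The letters of the first 2 probes are given because they gave like ratios from separate stretches of the gene.
Nfkbib probe A_55_P1989733: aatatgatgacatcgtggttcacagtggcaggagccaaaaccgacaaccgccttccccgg
Nfkbib probe A_66_P120882: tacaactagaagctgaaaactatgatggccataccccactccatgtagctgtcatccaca

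*Nfkbiz* codes for I-kappa-B zeta, a nuclear member of the family that works with p50 on secondary response genes such as *Il6*. In that role, I-kappa-B zeta is not an inhibitor, although the *Nfkbiz* probe was counted with the inhibitor probes. This probe (chromosome 16, 55817859 to 55817918, minus strand) read 0.382 in the control, 0.802 at 4 h, 0.492 at 20 h and 0.502 at 32 h. The log2 ratio was 1.07 ± 0.21 at 4 h, 0.37 ± 0.21 at 20 h and 0.40 ± 0.21 at 32 h. It was the highest member ratio at 20 h and at 32 h, at percentiles 90.3 and 90.6, and above 0 under all 5 other scalings at each time.

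*Tnfaip3* codes for A20, a ubiquitin-editing enzyme that shuts off signals upstream of the I-kappa-B kinase. Its probe (chromosome 10, 18720776 to 18720835, minus strand) read 1.07 in the control, 2.18 at 4 h, 0.726 at 20 h and 1.10 at 32 h. The log2 ratio was 1.03 ± 0.20 at 4 h, -0.56 ± 0.20 at 20 h and 0.04 ± 0.20 at 32 h. *Tnfaip3* was thus above the control at 4 h, below it at 20 h and within the spot error of it at 32 h, and the signs at 4 h and 20 h held under all 5 other scalings.

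*Nfkbie* codes for I-kappa-B epsilon, an inhibitor that binds p65 and c-Rel. Its probe (chromosome 17, 45700000 to 45700059, plus strand) read 4.46 in the control, 3.07 at 4 h, 3.64 at 20 h and 5.02 at 32 h. The log2 ratio was -0.54 ± 0.20 at 4 h, at percentile 17.8, and the sign held under all 5 other scalings, with a lowest value of -0.94. It was the 1 measured member probe lower at 4 h with the 75th percentile scaling. At 20 h it was -0.29 ± 0.20, though 0.04 without scaling, and at 32 h 0.17 ± 0.20.

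**Figure D2:**
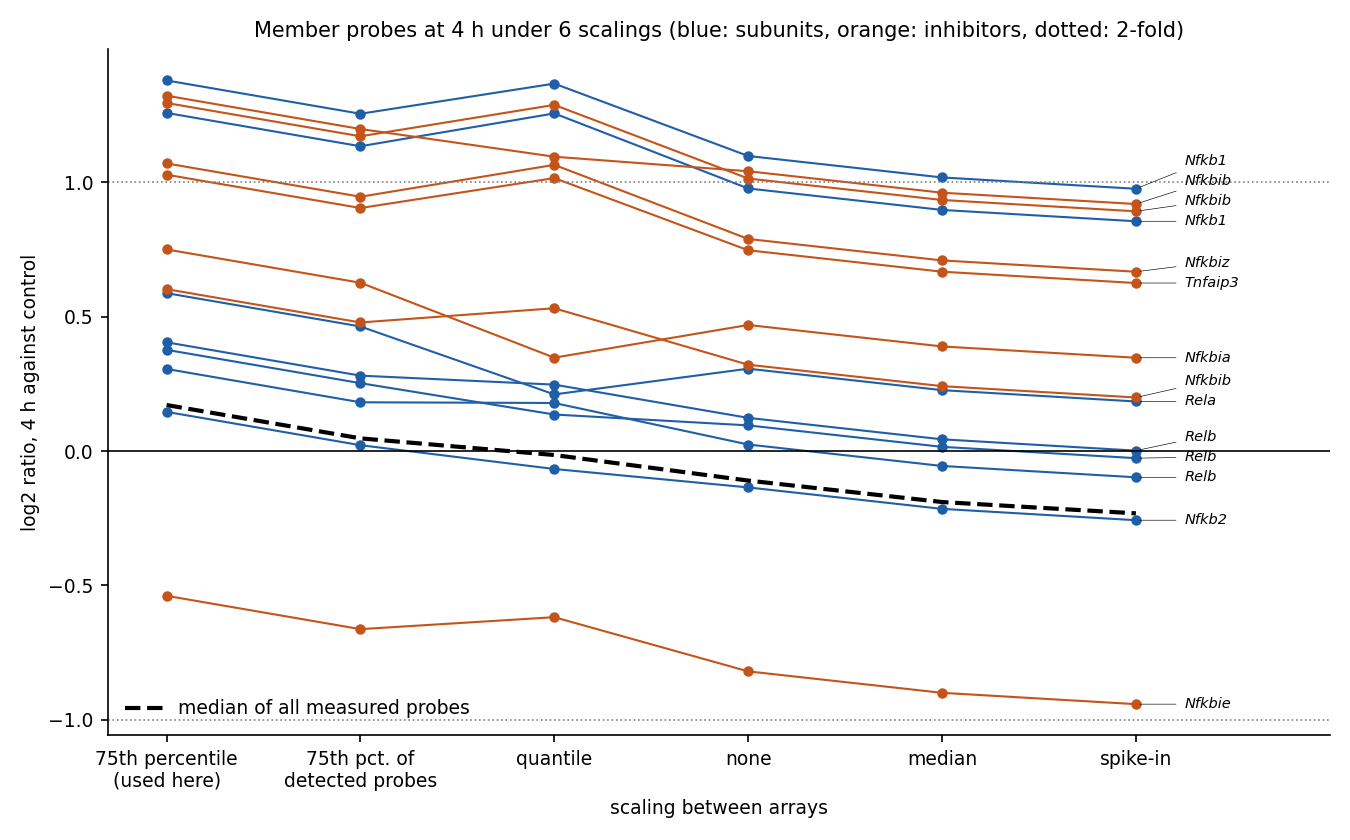
Log2 ratio of the 14 measured member probes at 4 h against the control (vertical axis) under 6 ways of scaling the arrays (horizontal axis), with the median of all measured probes dashed and 2-fold dotted. Most lines shift down with that median from left to right, apart from rises at quantile normalization, *Nfkb2* passes below 0, 2 *Relb* probes do so with spike-in scaling, and *Nfkbie* stays lowest in each.

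A change taken relative to another probe of the same array does not depend on the scaling constant. Relative to the *Rela* probe, the 4 h log2 changes were 0.79 ± 0.29 and 0.67 ± 0.29 for *Nfkb1*, and 0.73 ± 0.29 and 0.71 ± 0.29 for the *Nfkbib* probes A_55_P1989733 and A_66_P120882. *Nfkbiz* and *Tnfaip3* gave 0.48 ± 0.29 and 0.44 ± 0.29. *Nfkbia* gave 0.16 ± 0.29 and *Nfkbib* probe A_55_P2051666 0.01 ± 0.30, both within the spot error. *Relb* gave -0.18 to -0.28, within the spot error, and *Nfkb2* gave -0.44 ± 0.29. *Nfkbie* gave -1.13 ± 0.29, the lowest value of the group. These values show unequal change between the genes and not which of them changed.

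At 20 h, 0 member probes exceeded the control at least 2-fold, where 0.763% of all probes were, and 1 was at least 2-fold lower, where 1.87% of all probes were. The median log2 ratio was -0.11 over the 14 probes and -0.00 over all measured probes. *Nfkbia*, *Tnfaip3* and the *Nfkbib* probe A_55_P2051666 were lowest, at percentiles 4.52, 6.18 and 1.75, and *Nfkbiz* and *Rela* were highest. Relative to *Rela* within the array, the *Nfkbib* probe A_55_P2051666 gave -1.34 ± 0.31, *Nfkbia* -0.94 ± 0.29 and *Tnfaip3* -0.85 ± 0.29, while the remaining *Nfkbib* probes gave -0.16 and -0.23, within the spot error. The *Nfkb1* probes gave log2 ratios of -0.19 and -0.21, close to the spot error in size, and became 0.15 and 0.12 without scaling.

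**Figure D3:**
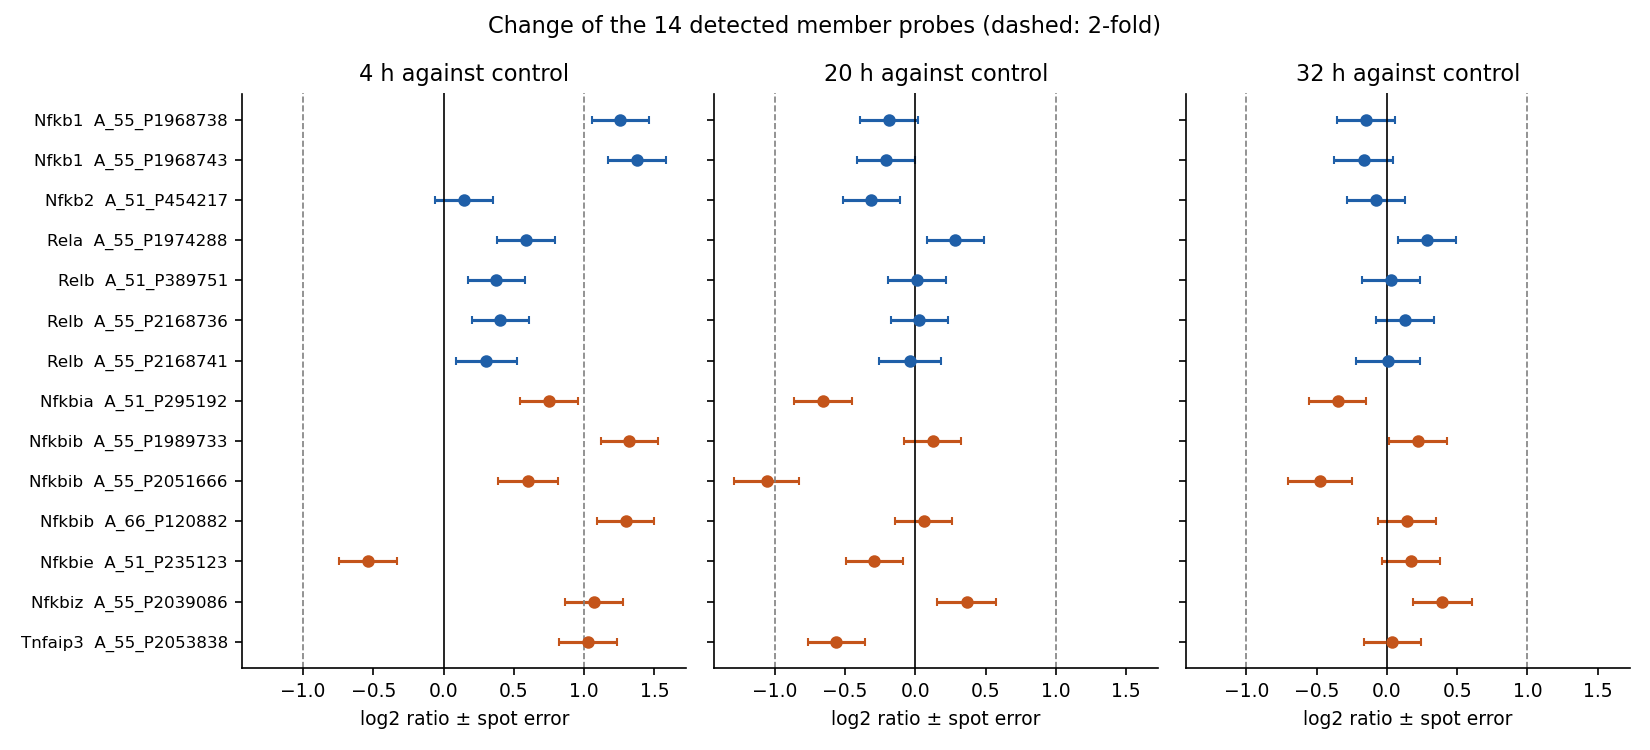
Log2 ratio of the 14 measured member probes (horizontal axis, with the spot error as bars) at 4 h, 20 h and 32 h against the same control array, with subunits in blue, inhibitors in orange and 2-fold dashed. At 4 h, 6 probes lie beyond 2-fold and *Nfkbie* is the 1 probe below 0, while *Nfkb2* and 2 *Relb* probes fall below 0 with other scalings, and at 20 h only the *Nfkbib* probe A_55_P2051666 lies beyond 2-fold.

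At 32 h, 0 member probes were at least 2-fold higher, where 1.15% of all probes were, and 0 were at least 2-fold lower, where 1.43% were. The median log2 ratio was 0.03. The values ran from -0.47 for the *Nfkbib* probe A_55_P2051666 to 0.40 for *Nfkbiz*, and 9 of the 14 probes differed from the control by less than the spot error.

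The 32 h array was also set against the 20 h array, which leaves the control out. Again 0 member probes were at least 2-fold higher, where 1.07% of all probes were, and 0 were at least 2-fold lower, where 0.497% were. *Tnfaip3* had a log2 ratio of 0.60 ± 0.20, the *Nfkbib* probe A_55_P2051666 0.58 ± 0.24 and *Nfkbie* 0.46 ± 0.20. *Nfkbia* followed with 0.31 ± 0.20 and *Nfkb2* with 0.23 ± 0.20. All 5 were above 0 under every scaling tried, and the first 3 lay between percentiles 97.2 and 98.4 of all measured probes. The other 9 probes lay between -0.00 and 0.10, and each of them changed sign under at least 1 other scaling.

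**Figure D4:**
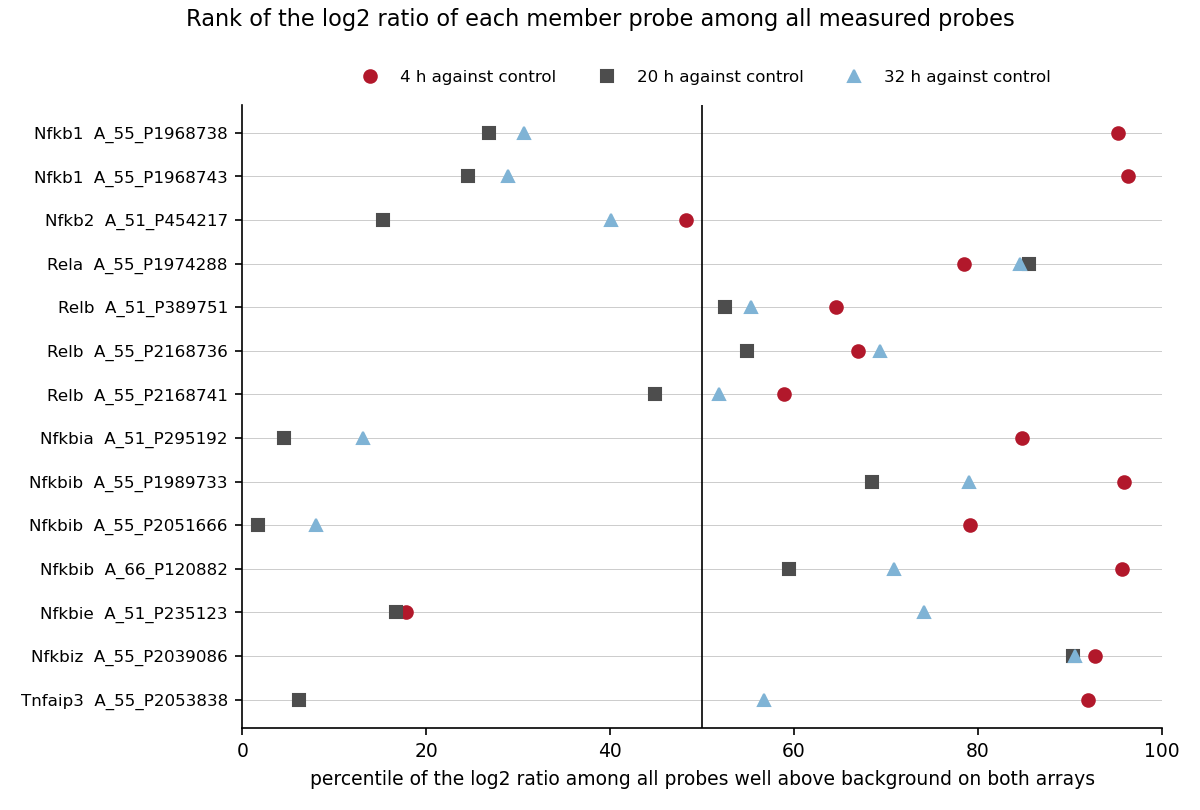
Percentile of the log2 ratio of each measured member probe among all probes measured on both arrays (horizontal axis, 50 marked), at 4 h, 20 h and 32 h against the same control, where a constant added to an array does not move these ranks. At 4 h the probes of *Nfkb1*, *Nfkbiz* and *Tnfaip3* and 2 of *Nfkbib* lie at percentiles from 91.9 to 96.3 and *Nfkbie* at 17.8, and at 20 h *Nfkbia*, *Tnfaip3* and *Nfkbib* probe A_55_P2051666 lie at 4.52, 6.18 and 1.75.

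Promoter sequence was examined for the kappa-B consensus, the sequence that NF-kappa-B dimers bind: 3 G, a purine, any 2 bases, 2 pyrimidines and 2 C, on either strand, with overlapping matches counted. The windows ran from 250 bases before to 50 after the start and came from RefSeq (GRCm38.p6), and 7 of the 10 genes were matched to 10 windows. No window was at hand for *Nfkb1*, *Relb* and *Nfkbiz*, so these were not searched, although *Nfkb1* and *Nfkbiz* were at least 2-fold higher at 4 h. A match stood in 5 of these 7 genes (*Nfkb2*, *Rel*, *Nfkbia*, *Nfkbie* and *Tnfaip3*), and in 8.459% of all 32851 windows, or 9.55% of 27025 genes. *Nfkbib* and *Rela* had none in their windows. The 250 bases before the start are printed for *Nfkbia* and *Tnfaip3*, which were higher at 4 h and lower at 20 h, and for *Nfkbie* and *Nfkb2*, which were lower or near the control at 4 h. *Tnfaip3* has 2 windows in the table, and the one with matches is shown. *Nfkb2* has 3, each with a match, and the one that starts farthest upstream is shown. Capitals mark the matches, and sequences run 5′ to 3′ on the strand of the gene.
Nfkbia promoter, chr12:55492648-55492897, minus strand: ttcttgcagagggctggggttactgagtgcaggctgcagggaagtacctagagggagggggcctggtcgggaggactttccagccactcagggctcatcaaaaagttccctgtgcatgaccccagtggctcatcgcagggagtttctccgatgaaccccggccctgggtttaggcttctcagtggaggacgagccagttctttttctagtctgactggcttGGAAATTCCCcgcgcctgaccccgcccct
Tnfaip3 promoter, chr10:19015411-19015660, minus strand: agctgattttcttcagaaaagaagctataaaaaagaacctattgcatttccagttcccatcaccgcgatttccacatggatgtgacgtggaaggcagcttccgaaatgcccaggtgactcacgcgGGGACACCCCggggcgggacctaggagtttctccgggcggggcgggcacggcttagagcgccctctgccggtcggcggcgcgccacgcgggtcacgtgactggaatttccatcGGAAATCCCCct
Nfkbie promoter, chr17:45555450-45555699, plus strand: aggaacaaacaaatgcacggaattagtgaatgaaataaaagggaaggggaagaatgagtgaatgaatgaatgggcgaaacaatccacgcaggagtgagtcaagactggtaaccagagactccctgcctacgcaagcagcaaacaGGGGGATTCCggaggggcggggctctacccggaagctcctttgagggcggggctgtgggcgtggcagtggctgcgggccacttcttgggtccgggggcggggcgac
Nfkb2 promoter, chr19:46304487-46304736, plus strand: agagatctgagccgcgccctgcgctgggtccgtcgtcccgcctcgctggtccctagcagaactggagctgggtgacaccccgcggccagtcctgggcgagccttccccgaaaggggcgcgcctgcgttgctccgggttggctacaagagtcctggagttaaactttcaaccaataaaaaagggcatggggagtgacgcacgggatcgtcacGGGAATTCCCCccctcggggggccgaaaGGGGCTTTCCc

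The match of *Nfkbia* begins at base -29 from the start, those of *Tnfaip3* at -125 and -12, and that of *Nfkbie* at -106. In the *Nfkb2* window shown, matches begin at -39, -38 and -11, and the first pair overlaps. The other *Nfkb2* windows overlap each other and hold matches that begin at -236 and 11 in one and at -225 in the other. The match at 11 and that at -225 are the same stretch of the genome, which lies in both windows. Genes with a match were thus found among those higher at 4 h, the one near the control, the one lower and the one not above background. A match describes the letters of the window and is no evidence of binding.

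Other genes of the pathway were taken from lists, with 1 probe per gene. Over all 30175 genes, 6.78% were at least 2-fold higher and 5.07% lower at 4 h, and the median log2 ratio was 0.17. Of 32 genes known as NF-kappa-B targets, 10 were at least 2-fold higher and 1 lower, with a median of 0.52 over the 25 measured on both arrays. The 10 became 6 with median, spike-in or no scaling, where 3.55%, 3.33% and 4.06% of all probes were at least 2-fold higher. They also became 6 with the median over the probes of a gene. *Ptgs2*, which codes for the prostaglandin synthase COX-2, had a relative signal of 9.10 in the control, 121 at 4 h, 7.52 at 20 h and 9.89 at 32 h. *Il6*, a cytokine of the acute phase, read 0.811, 8.22, 0.859 and 1.25. *Cxcl1*, a neutrophil chemokine, read 20.7, 128, 21.5 and 28.2. These 3 genes stood 13.3-fold, 10.1-fold and 6.17-fold above the control at 4 h and within 2-fold of it later. *Lif*, a cytokine of the same family as *Il6*, was 5.84-fold higher at 4 h and 3.0-fold lower at 20 h. *Irf1*, an interferon response factor, was the 1 target at least 2-fold lower at 4 h, with 10.6 in the control and 5.28 at 4 h (2.01-fold). Of the 10 higher, *Csf2* and *Mmp13* were counted by a bound, since the control was not well above background.

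At 20 h, 0 of the 32 targets were at least 2-fold higher, where 0.822% of all genes were, and 6 were lower, where 2% were, with a median log2 ratio of -0.44 against -0.00 over all genes. *Cxcl10*, a chemokine for T cells, read 3.05 in the control, 2.84 at 4 h, 0.628 at 20 h and 0.572 at 32 h. *Mmp9*, a gelatinase, read 0.152, 0.197, 0.0390 and 0.0662. *Plau*, the urokinase plasminogen activator, read 0.223, 0.360, 0.0735 and 0.0665. These 3 genes were lower on both late arrays than on the control and 4 h arrays. At 32 h, 5 targets were at least 2-fold lower, where 1.55% of all genes were, and 0 higher, where 1.26% were.

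Of 28 kinases and adaptors upstream of NF-kappa-B, 3 were at least 2-fold higher and 2 lower at 4 h. Over all genes, 6.78% were higher and 5.07% lower. The median log2 ratio was 0.21 over the 28 measured, near the 0.17 of all genes. The balance turned with the scaling, to 1 higher and 7 lower with the median or the spike-in controls and 1 higher and 6 lower without scaling. Over all probes, 9.06%, 9.70% and 7.89% were at least 2-fold lower under these settings, and 3.55%, 3.33% and 4.06% higher. *Csnk2a2*, which codes for a catalytic subunit of the kinase CK2, read 2.43 in the control and 7.42 at 4 h (3.05-fold). The other CK2 subunit genes of the list rose less, *Csnk2a1* by 1.36-fold and *Csnk2b* by 1.52-fold. *Ikbkg*, which codes for NEMO, the regulatory subunit of the I-kappa-B kinase, read 0.310 in the control and 0.745 at 4 h. *Traf6*, a ubiquitin ligase of the interleukin 1 pathway, read 0.563 and 1.14. *Irak4*, a kinase of the same pathway, was lower, with 0.102 and 0.0383, as was *Birc2*, which codes for cIAP1, with 1.32 and 0.579. At 20 h and at 32 h, 0 of the 28 were past 2-fold in either direction. Few of all genes were either, with 0.822% higher and 2% lower at 20 h, and 1.26% and 1.55% at 32 h.

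Of 21 other I-kappa-B family members and pathway regulators, 3 were at least 2-fold higher and 3 lower at 4 h. Over all genes, 6.78% were higher and 5.07% lower. The median log2 ratio was 0.19, near the 0.17 of all genes. The 3 higher became 1 with median, spike-in or no scaling, where 3.55%, 3.33% and 4.06% of all probes were at least 2-fold higher. *Trib3*, a pseudokinase of stress responses, read 0.908 in the control and 4.94 at 4 h. *Nkrf*, a repressor of NF-kappa-B, read 0.455 and 1.03, and *Rnf11*, a partner of A20, read 10.8 and 21.7. *Pdlim2*, a ubiquitin ligase for p65, was lower at 4 h, with 6.99 and 1.65. *Cyld*, a deubiquitinase that restrains the pathway, read 0.888 and 0.292. *Btrc*, which codes for the ligase that marks I-kappa-B for degradation, read 0.360 and 0.128. In that role, *Btrc* is not a negative regulator of NF-kappa-B. *Bcl3* codes for a nuclear I-kappa-B protein that works with p50 and p52. It read 9.81 in the control, 7.39 at 4 h, 18.6 at 20 h and 19.9 at 32 h. *Bcl3* was the 1 gene of this list past 2-fold at 32 h, where 1.26% of all genes were higher.

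Of 18 receptors that signal to NF-kappa-B, 2 were at least 2-fold higher at 4 h and 0 lower. Over all genes, 6.78% were higher and 5.07% lower. The median log2 ratio was 0.22 over the 12 measured, near the 0.17 of all genes. The 2 became 1 under each of the 5 other scalings, where 3.33% to 5.33% of all probes were at least 2-fold higher. *Tlr2*, a receptor for bacterial lipoproteins, read 6.04 in the control and 12.7 at 4 h, and *Tlr1*, its partner, was counted by a bound. *Tnfrsf12a*, the receptor of TWEAK, was at least 2-fold lower at both late times, with 41.5 in the control, 14.9 at 20 h and 17.7 at 32 h. *Il1rl1*, the receptor of interleukin 33, read 180 in the control, 75.8 at 20 h and 83.7 at 32 h.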

How the data were processed

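RNA of 4 samples, 1 per condition, was read on 4 one-color Agilent mouse arrays. The authors deposited spot intensities from Agilent Feature Extraction 10.7.3.1 (named in the submitters' processing notes), with the background subtracted, and a value table that holds these intensities over 1 constant for each array, as was checked on every spot. Probe positions are those of the array annotation (mm9).

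Spots with an outlier flag (125 to 161 per array) were left out, the log2 of the deposited intensities was averaged for each of 39429 probes, and each array's 75th percentile was taken off. A probe was well above background when at least 50% of its spots carried that flag of the software. A ratio was measured where both arrays passed. Where only 1 did, the ratio was a bound, taken over the dim signal or, if higher, over the dimmest signal that passed on that array. The call was a ratio of at least 2 in either direction, with no test and no p-value, and the 4 arrays limit the precision. For the lists, 1 probe stood for each gene, that with the highest mean signal.

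Groups came from the sample labels. All member probes are reported. From each list, at most 4 genes past 2-fold in each direction by a measured ratio were named at each time, those with the largest ratio first, except that CK2 subunits were not to be named. *Csnk2a2*, *Csnk2a1*, *Csnk2b*, *Csf2*, *Mmp13*, *Tlr1* and the *Itgam* values were added after the values were seen. A marker gene of the lists is not reported here and was left out of their counts and sums. The members and lists were chosen with earlier results of these data known. Alternatives were 5 other scalings (median, quantile, 75th percentile of detected probes, 8 spike-in probes, none), normexp background correction (offset 50), 3 other detection rules, flagged spots kept, thresholds of 1.5-fold and 3-fold, another value per gene, and the deposited table. Added after seeing the data were spike-in scaling without 1 probe, removal of a trend with base composition, and change relative to *Rela*. The steps were tested on simulated data. The significance analysis of the methods was not repeated with 1 array per condition. Python 3.11.15 with numpy 2.4.6 and pandas 2.3.3 and, in R 4.3.3, limma 3.58.1 were used.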

Additional observations from a re-analysis of the deposited data

Results flagged for a closer look

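For 4 probes, the ratio to the control lay above 0 by more than the spot error at 4 h and below 0 by more than the spot error at a later time. The difference between the times was not tested, since each has 1 array, and the comparisons share the control array. For *Nfkbia*, the log2 ratio was 0.75 at 4 h, -0.66 at 20 h and -0.35 at 32 h. Its 32 h value was within the spot error with spike-in scaling (-0.19) and without scaling (-0.17). For the *Nfkbib* probe A_55_P2051666 the log2 ratio was 0.60 at 4 h, -1.06 at 20 h and -0.47 at 32 h. The 4 h value of this probe was 0.20 with spike-in scaling, within the spot error. Both remaining *Nfkbib* probes lay above 0 at each time. For *Tnfaip3* the log2 ratio was 1.03 at 4 h and -0.56 at 20 h. For the *Nfkb1* probe A_55_P1968743 it was 1.38 at 4 h and -0.21 at 20 h, where the later value barely passed the spot error and was 0.12 without scaling.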

How the results depend on the processing

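No paired analysis was possible because each condition has 1 array, and no replicate could be left out. At 4 h, other scalings shifted the median of all measured probes by -0.12 (75th percentile of detected probes), -0.19 (quantile), -0.28 (none), -0.36 (median) and -0.40 (spike-in) on the log2 scale. The median log2 ratio of the members at 4 h, 0.68, became 0.32 with the median, 0.44 with quantile normalization, 0.39 without scaling, 0.27 with the spike-in controls and 0.28 with these less 1 probe. The count of members at least 2-fold higher at 4 h was 6, against 6.77% of all probes. It became 3 without scaling (4.06% of all probes), 1 with the median (3.55%) and 0 at 3-fold (2.60%). With spike-in scaling it was 0 (3.33%, or 3.37% less 1 probe). With the 75th percentile of detected probes (5.33%), *Nfkbiz* and *Tnfaip3* also fell below 2-fold. The count at least 2-fold lower at 20 h was 1 (1.87% of all probes). It became 0 with median (1.54%), quantile (1.61%), spike-in (1.27%, or 1.64% less 1 probe) or no scaling (1.01%). It was also 0 with normexp (1.06%) and at 3-fold (0.634%), and 2 at 1.5-fold (4.29%). The median at 20 h became 0.22 without scaling. At 32 h, 1 member was at least 1.5-fold higher than at 20 h, where 2.10% of all probes were. The other 152 values of these counts and medians under an alternative stayed within their limits. Of the values for single probes and lists, 971 stayed within theirs and 141 moved. Which scaling is closest to the RNA of the cells was not tested, and the spot error does not cover differences between cultures.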
